A study of Danio rerio with 12 samples.

Results

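Tumor-to-tumor variation in open chromatin was described among the 6 zebrafish melanomas sequenced together in run 3 (MA6, MA7, MA8, MA9, MA10 and MA11), which are 6 of the 12 ATAC-seq libraries of the study. ATAC-seq uses the transposase Tn5 to cut and tag DNA where chromatin is open, so that clusters of cuts, called here intervals, mark accessible sites. Each library was made from GFP+ cells sorted from 1 tumor of a fish labelled BRAFV600E/p53lf/lf/crestin:EGFP. In these fish human BRAFV600E is driven by the promoter of mitfa, the master regulator of melanocytes, both copies of p53 carry a loss-of-function allele, and EGFP follows crestin, a gene of the embryonic neural crest that is switched on again in melanoma. All 6 melanomas share this genotype, and the age of the fish was not given in the sources used here. The other 6 libraries, used only for comparison, were the run 2 melanomas MA4 and MA5 of the same genotype and 4 libraries of mCherry+ melanocytes from skin. Of these, 3 were MC_Het, labelled BRAFV600E/+/p53+/lf/mitfa+/-/mitfa:mCherry, and 1 was MC_Homo, labelled BRAFV600E/p53lf/lf/mitfa+/-/mitfa:mCherry.

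Each tumor was used as 1 library, so a difference between 2 tumors has no replicate check, and differences between tumors are described without a test. Members were found as follows. Intervals on chromosomes 1 to 25 with the same start and end were kept once with their highest −log10 p, each of the 6 lists was shortened to its 62916 strongest intervals, which is the length of the shortest list (MA10), and the lists were merged wherever intervals overlapped by 1 bp. This gave 134713 regions. Positions are those of GRCz11.

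Melanocytes arise from the neural crest, and melanomas of this model keep or regain features of that origin. Gains and losses of DNA are known from tumors of zebrafish with mutant p53. An ATAC-seq library samples every copy of a chromosome, so a gain of DNA adds reads at the open sites it covers. A change in the use of an enhancer or promoter alters single sites. Regions were described by whether they followed their chromosome or departed from it. Neither shape was read as a cause, and causes were not tested.

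The 6 libraries differed in depth and in list length. The number of tags (read ends after filtering), recovered from the deposited scores, was 8.78 M in MA6, 9.38 M in MA7, 11.5 M in MA8, 6.88 M in MA9, 6.52 M in MA10 and 6.05 M in MA11. Complete lists held 62916 intervals in MA10 to 87463 in MA8. MA11 was the shallowest library and still had 83642 intervals. Its regions were low, with a median height of 2.48 tags per M (mega, as in Mb) at the sites found in all 6 complete lists, against 3.37 in MA10 and 4.78 in MA6. Height is the number of tags piled up at the strongest point of a region, divided by the library's tags in M. Values are also given without MA11 where it decides them. The melanoma identity of the sorted cells could not be checked on marker genes, because genes were not placed on this assembly here.

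Most regions were found in few tumors or in all of them. A single tumor accounted for 60390 of the 134713 regions (44.8%), while 18105 were found in 2 tumors, 11656 in 3, 9876 in 4, 10516 in 5 and 24170 (17.9%) in all 6. The regions of all 6 tumors made up 39.0% to 39.8% of each tumor's own regions. They were the strong part of the lists. Their median width was 345 bp and their median height 3.97 tags per M, against 124 bp and 1.16 tags per M for regions of 1 tumor, with widths of 188, 229, 262 and 298 bp for 2 to 5 tumors. Merging intervals of more lists widens a region, so part of the rise in width is built in. The ranks moved with this, from a median rank of 13590.5 among the 62916 for regions of all 6 tumors to 50628 for regions of 1. Most single-tumor regions thus lay near the end of a list, where detection depends on the threshold. Of the 60390, 47118 (78.0%) had no interval in the complete list of any of the other 5 tumors. The complete lists also end at a threshold, and that of MA10 is the list used. Absence from them therefore does not show that detection was independent of the threshold. Without MA11, 28734 regions were found in all of the remaining 5 tumors. Among the 20000 strongest intervals of each library, 8832 regions were found in all 6 and 11249 in only 1.

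**Figure D1:**
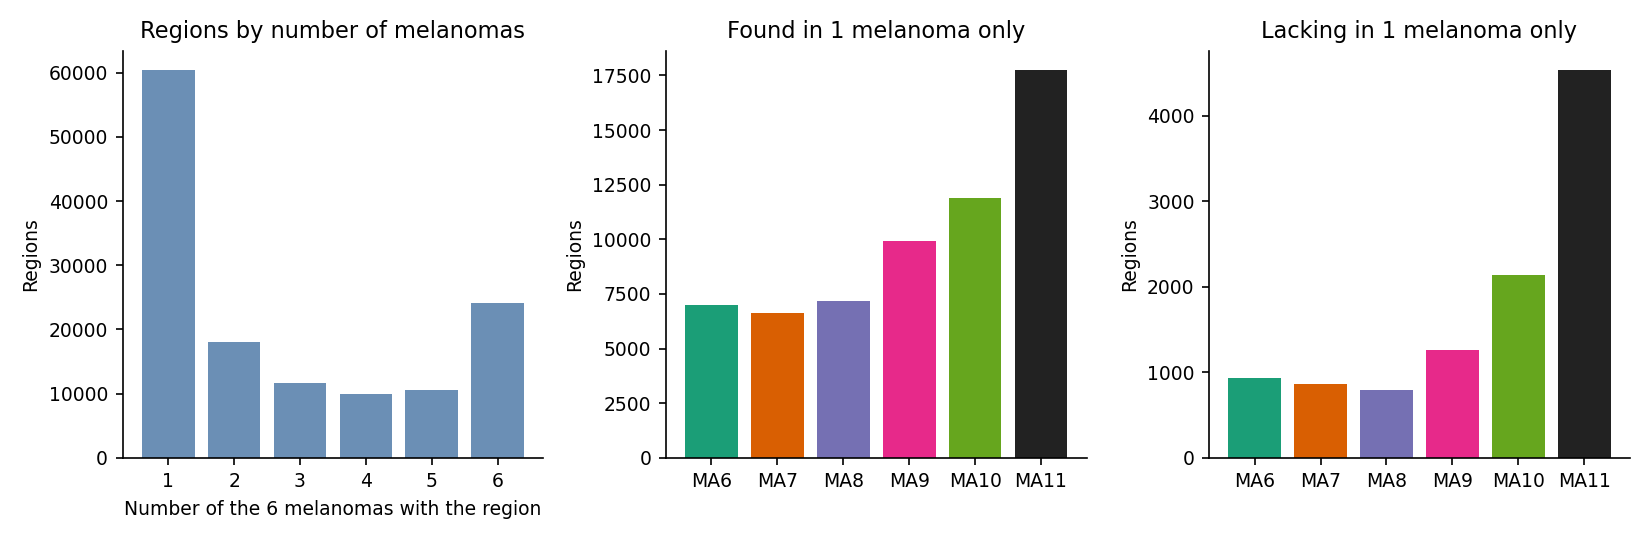
Regions of the 6 equal-size lists by the number of melanomas that have them (left), regions found in 1 melanoma only (middle) and regions found in all but 1 melanoma (right), as bars of region counts. The left panel has its highest bars at 1 melanoma (60390) and at 6 (24170), and MA11 has the highest bar in the other panels, with 17740 and 4532 regions.

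Single-tumor regions were spread unevenly. MA11 had 17740 of them, which was 28.8% of its regions, MA10 had 11871, MA9 had 9929, MA8 had 7192, MA6 had 7016 and MA7 had 6642 (10.8%). The opposite class, regions present in 5 tumors and lacking in the sixth, numbered 4532 for MA11, 2134 for MA10, 1264 for MA9, 935 for MA6, 858 for MA7 and 793 for MA8. As a share of the regions found in all of the other 5 tumors, 15.8% were lacking in MA11 and 3.18% in MA8. Over all 6 tumors 10516 of the 34686 regions present in at least 5 tumors were lacking in 1, a background of 30.3%. Of the lacking regions 79.1% were absent from the complete list of that tumor as well, with 47.2% in MA8, the deepest library, and 100% in MA10, whose complete list is the list used.

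Both counts moved with depth. Peak names inside the deposited lists carry the tag unpig in MA6, MA7 and MA8 and the tag pig in MA9, MA10 and MA11. The paper states that its tumors were diverse in pigmentation status and location, and its main text does not give the status of each library. The labels do not give such groups, so none were formed, but the libraries with the first tag were all deeper (8.78 to 11.5 M tags) and lacked fewer regions (793 to 935) than those with the second (6.05 to 6.88 M tags, 1264 to 4532 regions), so depth and whatever the tag marks cannot be told apart here. The number of lacking regions fell strictly with the recovered tags over the 6 tumors (Pearson's r = −0.70 and Spearman's rho = −1, exact permutation p = 0.00278 for each, two-sided, which is the smallest p that 6 libraries allow, and 0.0111 after Benjamini-Hochberg adjustment over 4 relations). Without MA8 and MA11, the libraries farthest from the median depth, r was −0.85 over 4 tumors. The number of single-tumor regions had r = −0.77 (exact permutation p = 0.0194, adjusted 0.0389) and rho = −0.83 (exact permutation p = 0.0583, adjusted 0.0778), and r was −0.97 without the same libraries. With complete lists that r was −0.15 (adjusted exact permutation p = 0.892), so the relation of single-tumor regions to depth did not hold without equal list lengths. The mean rank agreement of a tumor with the others (r = 0.55, exact permutation p = 0.211) and the spread of its chromosome shares (r = −0.76, exact permutation p = 0.0861) did not pass the threshold. Thinning to 6.05 M tags was applied to the tags piled up in intervals already called, and no peaks were called again. It left 23366 regions in all 6 tumors, 10165 in 5 and 62801 in 1. Intervals that a caller would split, narrow or add at lower depth cannot appear this way, so the part of depth was not tested by it.

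Pairs of tumors shared between 33487 regions (MA10 and MA11) and 44366 regions (MA7 and MA8). In regions that both tumors of a pair had, the strength given by −log10 p was ranked alike, with a mean Spearman's rho of 0.66 ± 0.067 (SD, n = 15 pairs that share libraries). The highest rho was 0.76, for MA7 and MA8, and the lowest 0.54, for MA6 and MA11. MA6, MA7, MA8 and MA9 agreed among themselves at 0.68 to 0.76. MA10 agreed best with MA9 (0.70), and MA11 agreed best with MA10 (0.66). The Jaccard index, which is the shared length over the combined length of 2 lists, ordered the pairs in a similar way, from 35.6% for MA7 and MA11 to 54.1% for MA7 and MA8, with a mean of 43.6% ± 6.56 (SD). All 5 pairs with MA11 were at 35.6% to 37.1%, and no other pair was under 42.2%. Without MA11 the mean was 47.3%.

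The strongest intervals varied between pairs as well. Of the regions that hold the 5000 strongest intervals of MA7, 73.3% were also among those of MA8, while 52.9% of those of MA6 were among those of MA11. Ranking regions within each chromosome in place of the whole genome raised rho in every pair of the 15, to a mean of 0.68 ± 0.065 (SD). The highest and lowest pairs were again MA7 and MA8 at 0.77 and MA6 and MA11 at 0.56. The gain was smaller than the spread between pairs.

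**Figure D2:**
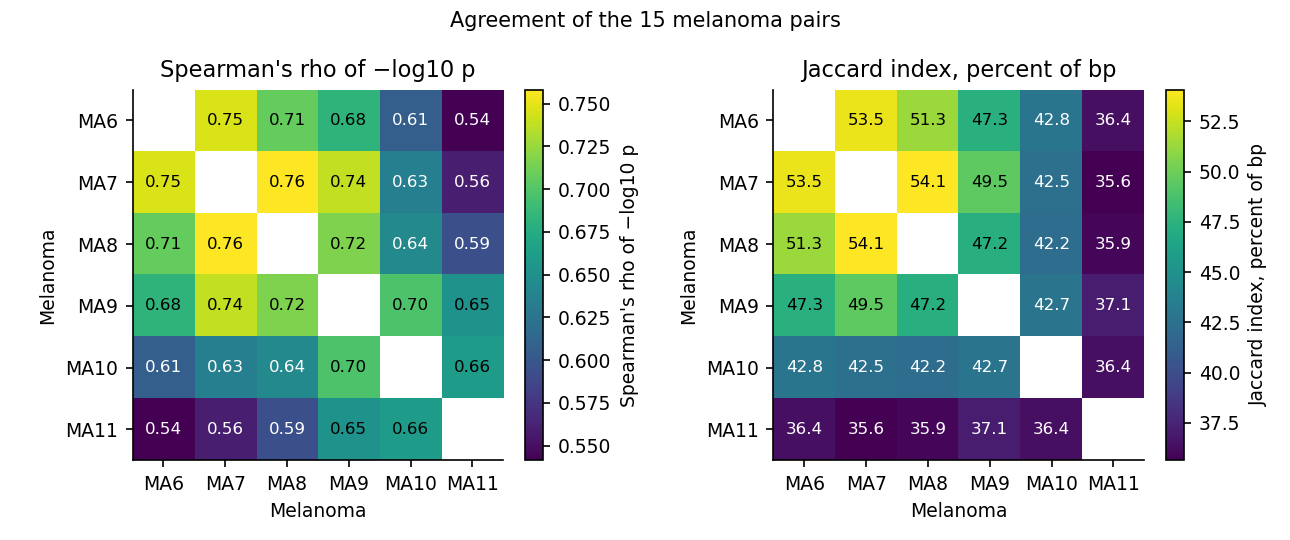
Agreement of the 15 pairs of melanomas, as Spearman's rho of −log10 p over regions that both have (left) and as the Jaccard index in percent of bp (right). Each cell is 1 pair. The row and column of MA11 hold the lowest values, down to 0.54 and 35.6%, and MA7 with MA8 is highest in both panels.

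The regions at the top of all 6 lists were nearly the same in every tumor. By mean rank the first was chr5:52427728-52428001, which ranked 2 in MA6 and 1 in each of the other 5 tumors. Its height was 226 tags per M in MA6, 232 in MA7, 238 in MA8, 278 in MA9, 312 in MA10 and 340 in MA11. The second, chr5:14634607-14634806, was between 199.7 in MA8 and 307 in MA11. The next were chr16:51444992-51445196, chr6:2906660-2906833 and chr17:3995469-3995765, the last ranking 3 to 7. Each of these 5 regions was highest in MA11, the library with the lowest median height. All 5 had an interval in MA4, in MA5 and in all 4 melanocyte libraries.

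Regions of 1 tumor that ranked well above the median of their class existed on chromosomes whose share was near that of the other tumors. For each tumor the 2 best-ranked regions were taken that had no interval in the complete lists of the other 5 and lay on a chromosome within 0.15 log2 of them. MA11 had the best-ranked, chr20:34965124-34965374, with a height of 5.12 tags per M and rank 5696. This region was not particular to MA11 in the whole series, since MA5 and all 4 melanocyte libraries had an interval there. In MA8, chr11:43345432-43345901 reached 5.72 tags per M at rank 7072 and was found in MA5 and in 2 melanocyte libraries. MA7 had chr9:39720621-39721135 at 5.44 tags per M. MA6 had chr6:55753831-55754197 at 4.10, a region with an interval in MA4 and MA5 and in no melanocyte library. In MA10, chr15:21266428-21266580 reached 3.22, with an interval in MA5 and 2 melanocyte libraries. The strongest of MA9, chr10:28395639-28395819 at 3.34 tags per M, was found in none of the other 11 libraries. The best-ranked regions of MA6 (rank 15913), MA9 (rank 13590) and MA10 (rank 13816) were not strong within their lists. Their heights were below their tumor's median for regions of all 6 tumors, which was 5.24 tags per M in MA6, 4.07 in MA9 and 3.68 in MA10. Of the 12 regions chosen in this way, 4 were found in no other library, 6 in MA4 or MA5 and 7 in at least 1 melanocyte library.

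Loss of a strong region in 1 tumor was also found away from shifted chromosomes. The clearest was chr25:22889407-22889761, which had no interval in MA11. Its height was 23.7 tags per M in MA6, 17.5 in MA7, 12.7 in MA8, 22.7 in MA9 and 13.0 in MA10, and all 6 libraries outside run 3 had it. In MA8, the deepest library, chr5:58415811-58416111 was lacking, although its height was 18.5 in MA6, 17.0 in MA7, 11.6 in MA9, 6.13 in MA10 and 2.81 in MA11. The tumors that had this region thus differed widely in its height. MA4 and MA5 had no interval there either, so its absence was not particular to MA8, while 3 melanocyte libraries had one. MA10 lacked chr6:58040524-58041005, whose height was between 3.14 in MA11 and 19.7 in MA6. MA9 lacked chr23:45827306-45827814 and chr24:14848085-14848526, the latter at 22.7 tags per M in MA8 and 1.32 in MA11. The second region chosen for MA8, chr13:4065443-4065735, had the highest mean rank number of the 12 (15439.6), and its height was 15.1 in MA7 and 2.39 in MA6. For MA6 and MA7 the 4 chosen regions were narrow, with widths of at most 137 bp. Of all 12, 10 had an interval in both MA4 and MA5, and 11 in at least 1 melanocyte library.

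Whole chromosomes differed between the tumors. Each chromosome's share of a tumor's intervals was divided by the mean share in the other 5, and 39 of the 150 tumor-chromosome pairs departed by at least 0.3 log2 (26.0%), of which 17 were higher (11.3%) and 22 lower (14.7%). By tumor this was 5 chromosomes in MA6, 6 in MA7, 4 in MA8, 6 in MA9, 9 in MA10 and 9 in MA11. The exact binomial 95% interval of the share left out the mean of the other 5 in 117 of all 150 pairs. It did so in all 39 shifted pairs, which follows from the threshold, since these intervals are narrow beside 0.3 log2. They cover counting error only and treat the sites of a library as independent. The lists hold no input DNA, so more copies of a chromosome and more open chromatin on it cannot be told apart, and neither can a change in some of the cells and a smaller change in all of them.

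**Figure D3:**
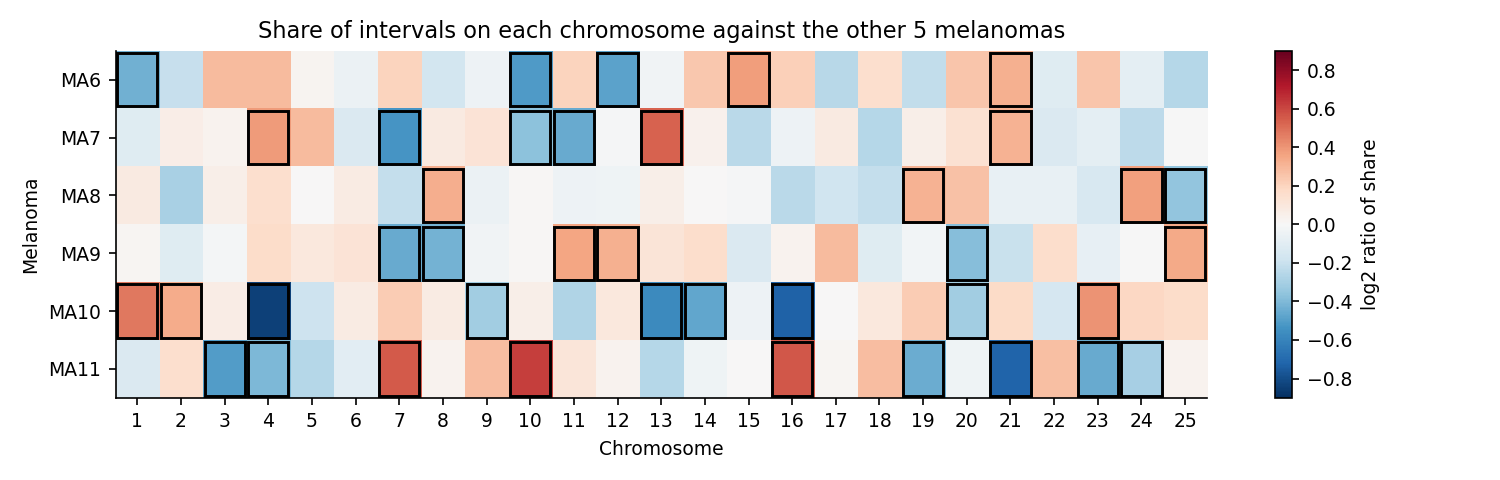
Chromosome shares of the 6 melanomas (rows) for 25 chromosomes (columns), each against the mean of the other 5, as a log2 ratio (red higher, blue lower). Black frames mark the 39 pairs with an absolute ratio of at least 0.3. The darkest cells are chromosomes 4 (−0.84) and 16 (−0.73) of MA10 and chromosome 21 of MA11 (−0.72).

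The tumors had different sets of shifted chromosomes. MA10 was lowest on chromosome 4, which held 1.84% of its intervals (95% interval 1.74 to 1.95%) against 3.59% in MA6, 3.80% in MA7, 3.33% in MA8, 3.35% in MA9 and 2.41% in MA11. Its log2 ratio was −0.84. MA10 was also lowered on chromosomes 16 (−0.73), 13 (−0.57), 14 (−0.47), 20 (−0.32) and 9 (−0.31), and raised on chromosomes 1 (0.47), 23 (0.41) and 2 (0.33). Chromosomes 4 and 16 of MA10 had the lowest shares of any chromosome in the 6 tumors.

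MA11 was raised on chromosomes 10 (0.62), 16 (0.56) and 7 (0.55) and lowered on chromosomes 21 (−0.72), 3 (−0.50), 23 (−0.46), 19 (−0.45), 4 (−0.40) and 24 (−0.30). Chromosome 10 held 5.60% of its intervals, above 2.93% in MA6, 3.19% in MA7, 3.98% in MA8, 3.99% in MA9 and 4.08% in MA10. Chromosome 16 went in opposite directions in these tumors, with 4.19% in MA11 and 1.98% in MA10, a ratio of 2.12, which was the widest range of any chromosome. The remaining 4 tumors were between them, at 2.66% in MA8, 2.98% in MA7, 3.12% in MA9 and 3.47% in MA6. Chromosome 21 held 2.05% of the intervals of MA11 and between 2.80% and 3.79% of those of the others.

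MA7 was raised on chromosomes 13 (0.53), 4 (0.39) and 21 (0.31) and lowered on chromosomes 7 (−0.53), 11 (−0.45) and 10 (−0.37). Chromosome 13 held 6.14% of its intervals, against 3.24% in MA10 and 3.92% to 4.87% in the others. Chromosome 7 held 3.83% in MA7 and 4.03% in MA9, 4.65% in MA8, 5.89% in MA6, 5.99% in MA10 and 7.17% in MA11, so MA6, MA10 and MA11 were above the other 3. MA6 was lowered on chromosomes 10 (−0.51), 12 (−0.48) and 1 (−0.44) and raised on 15 (0.38) and 21 (0.32). MA9 was lowered on 7 (−0.45), 8 (−0.43) and 20 (−0.38) and raised on 11 (0.36), 25 (0.34) and 12 (0.32). MA8 had the fewest shifts, with chromosomes 24 (0.37), 8 (0.33) and 19 (0.31) raised and 25 lowered (−0.36), and its ratios over the 25 chromosomes had an SD of 0.19, against 0.34 in MA10 and in MA11.

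Across tumors, 20 chromosomes were shifted at least once and 14 of these were raised in some tumors and lowered in others. Chromosomes 2 and 15 were shifted upward only, chromosomes 3, 9, 14 and 20 downward only, and chromosomes 5, 6, 17, 18 and 22 were shifted in no tumor at this threshold. Chromosome 6 had the narrowest range, from 3.72% in MA7 to 4.31% in MA9. A ratio to the other 5 tumors rises when 1 of them is low, so opposite shifts on 1 chromosome are not independent of each other. With a threshold of 0.5, 11 pairs were left, and with 0.2, 69.

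The shifts ran along the whole chromosome in nearly every case. When each chromosome was divided into 4 parts of equal length, all 4 parts had the sign of the chromosome and a ratio of at least 0.15 in 38 of the 39 pairs (97.4%). For chromosome 13 of MA7 the 4 parts were at 0.50, 0.56, 0.54 and 0.53, and for chromosome 10 of MA11 at 0.56, 0.60, 0.63 and 0.70. For chromosome 16 of MA10 they were at −0.84, −0.66, −0.90 and −0.56. The exception was chromosome 4 of MA11, with −0.65, −0.03, −0.32 and −0.30. Over all 600 parts of all tumors the median absolute departure from the chromosome was 0.046, and 7 parts departed by at least 0.3, among them the first part of chromosome 1 in MA11 (−0.58), the second part of chromosome 14 in MA9 (0.43) and the last part of chromosome 4 in MA8 (−0.37).

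Heights at shared sites moved with the shares. At the 26866 regions found in all 6 complete lists, the height in each tumor was set against the mean log2 height in the other 5 and centred on the tumor's median. All 39 shifted chromosomes had a median height departure of the same sign as their share, with a median size of 0.45 log2, against 0.12 for the 111 pairs that were not shifted. The sites on chromosome 13 were at 1.79 times the height in the other 5 tumors in MA7 after this centring, and those on chromosome 16 at 1.57 times in MA11. Sites on chromosome 4 of MA10 were at 0.643 times and those on chromosome 21 of MA11 at 0.639 times. Over the 25 chromosomes r between share and height was 0.94 in MA6 to 0.96 in MA9, as a description across chromosomes of 1 library, since both values come from the same tags. The difference therefore lay both in how many sites passed the caller and in how high the sites common to all tumors were.

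**Figure D4:**
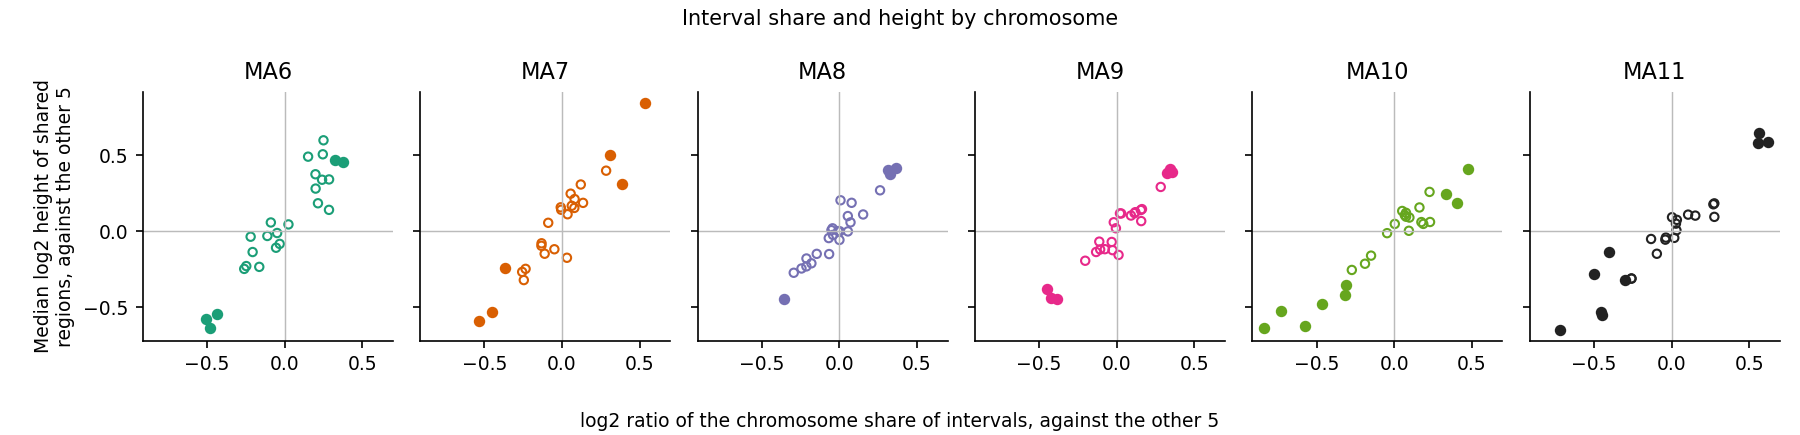
For each melanoma, the median log2 height of shared regions on a chromosome against the other 5 melanomas (vertical) by the log2 ratio of that chromosome's share of intervals (horizontal). Each point is 1 of 25 chromosomes, and filled points are the shifted ones. The filled points lie in the lower left or upper right in every panel, with r from 0.94 to 0.96.

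Most of the variation between megabase-sized windows was between chromosomes, and most of the variation between single sites was not. In 270 windows of 5 Mb, differences between chromosomes accounted for 86.9% of the variance of the log2 interval ratio in MA6, 83.8% in MA7, 74.0% in MA8, 74.3% in MA9, 88.8% in MA10 and 81.6% in MA11. For the heights of single shared regions the same share was 12.4% (MA11) to 19.3% (MA7). These are different measures at different scales. For interval ratios the mean share over tumors was 85.4% in 10 Mb windows, 81.5% in 5 Mb windows and 73.7% in 2 Mb windows. Counting error in the height of a single region was not separated, so the remainder is not a measure of local differences between tumors. The SD of log2 height over the 6 tumors had a median of 0.62 over shared regions. It was 0.58 after each library was centred on its median and 0.52 after each chromosome of each library was centred.

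Regions lost or gained in 1 tumor were more frequent on its shifted chromosomes, and most lay elsewhere. In MA10 its 6 lowered chromosomes held 24.2% of the regions present in all other tumors and 46% of those that MA10 lacked. The rate of lacking was 15.4% on these chromosomes and 5.78% on the rest. In MA11 the rates were 23.6% and 13.2%, in MA9 10.2% and 4.11%, in MA8 7.61% and 3.03%, in MA7 7.08% and 2.88%, and in MA6 6.79% and 3.31%. In sum, 3514 of 10516 lacking regions (33.4%) lay on a chromosome lowered in that tumor, where 15.5% of the candidate regions lay. Single-tumor regions followed in the same direction. Of the 60390, 12551 (20.8%) lay on a chromosome raised in that tumor, which held 14% of all regions in the lists. In MA11 37.5% of its regions on raised chromosomes were its own, and 27.0% of those on the rest. The classes and the shifts come from the same intervals, so these rates describe 1 pattern in 2 ways and are given with no test.

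Making the chromosome shares equal changed the detection classes little. When every chromosome was shortened to the length of its shortest list, 49550 intervals were left per tumor, with 21127 regions in all 6 tumors and 38363 in 1. A genome-wide list of the same size gave 20454 in all 6 and 38935 in 1. MA11 had 11807 single-tumor regions with equal chromosome shares and 11862 without. MA10 lacked 1709 regions with equal shares and 1811 without. The mean Jaccard index was 46.9% with and 46.1% without, a difference smaller than the spread of pairs (SD 6.37).

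Departures from the chromosome were few and lay mostly in MA9 and MA11. Only windows with a mean of at least 50 intervals a tumor were used, so sparser stretches were not examined. In 5 Mb windows 8 of 1620 window-tumor pairs departed from their own chromosome by at least 0.5 log2 (0.494%). MA11 had 4 of them and MA9 had 2. The largest of the 8 was in MA11, at 25 to 30 Mb of chromosome 4 (0.89). MA11 had 194 intervals there against a mean of 138.4 in the other 5. MA8 had 1, at 20 to 25 Mb of chromosome 1 (0.52). MA10 had 1, in the same window of chromosome 4 as MA11 and in the opposite direction (−0.65). In 2 Mb windows there were 29 such departures, 13 in MA11, 9 in MA9, 4 in MA10, 2 in MA7, 1 in MA8 and 0 in MA6. All 9 of MA9 were on chromosomes 4, 10 and 14, and 9 of the 13 in MA11 were on chromosome 1. At 28 to 30 Mb of chromosome 4, MA7 (−0.58), MA8 (−0.61), MA10 (−0.50) and MA11 (0.96) all departed. Without MA11, 3 departures were found in 5 Mb windows.

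Chromosome 1 of MA11 was divided in 2. Its share was near that of the other tumors as a whole (−0.13), while the first 28 Mb, a boundary set after the profile was seen, held 695 intervals in MA11 against 798 in MA6, 1047 in MA7, 1199 in MA8, 1176 in MA9 and 1380 in MA10. The ratio was −0.69 there and 0.13 on the rest of the chromosome, where MA11 had 1968 intervals and the others 1425 to 2372. No other tumor had opposite signs of this size, which is largely built in, since the boundary was set after the profile was seen. MA8 was at 0.23 and −0.015 and MA9 at 0.20 and −0.09, with MA11 part of their reference. MA6 was at −0.46 and −0.42, and MA10 at 0.49 and 0.47. The heights of 398 shared regions in the first part were at 0.755 times in MA11, and those of 806 regions in the rest at 1.06 times. The lowest 2 Mb window of MA11 was at 4 to 6 Mb (−1.02), with 55 intervals against a mean of 111.8 in the other 5.

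**Figure D5:**
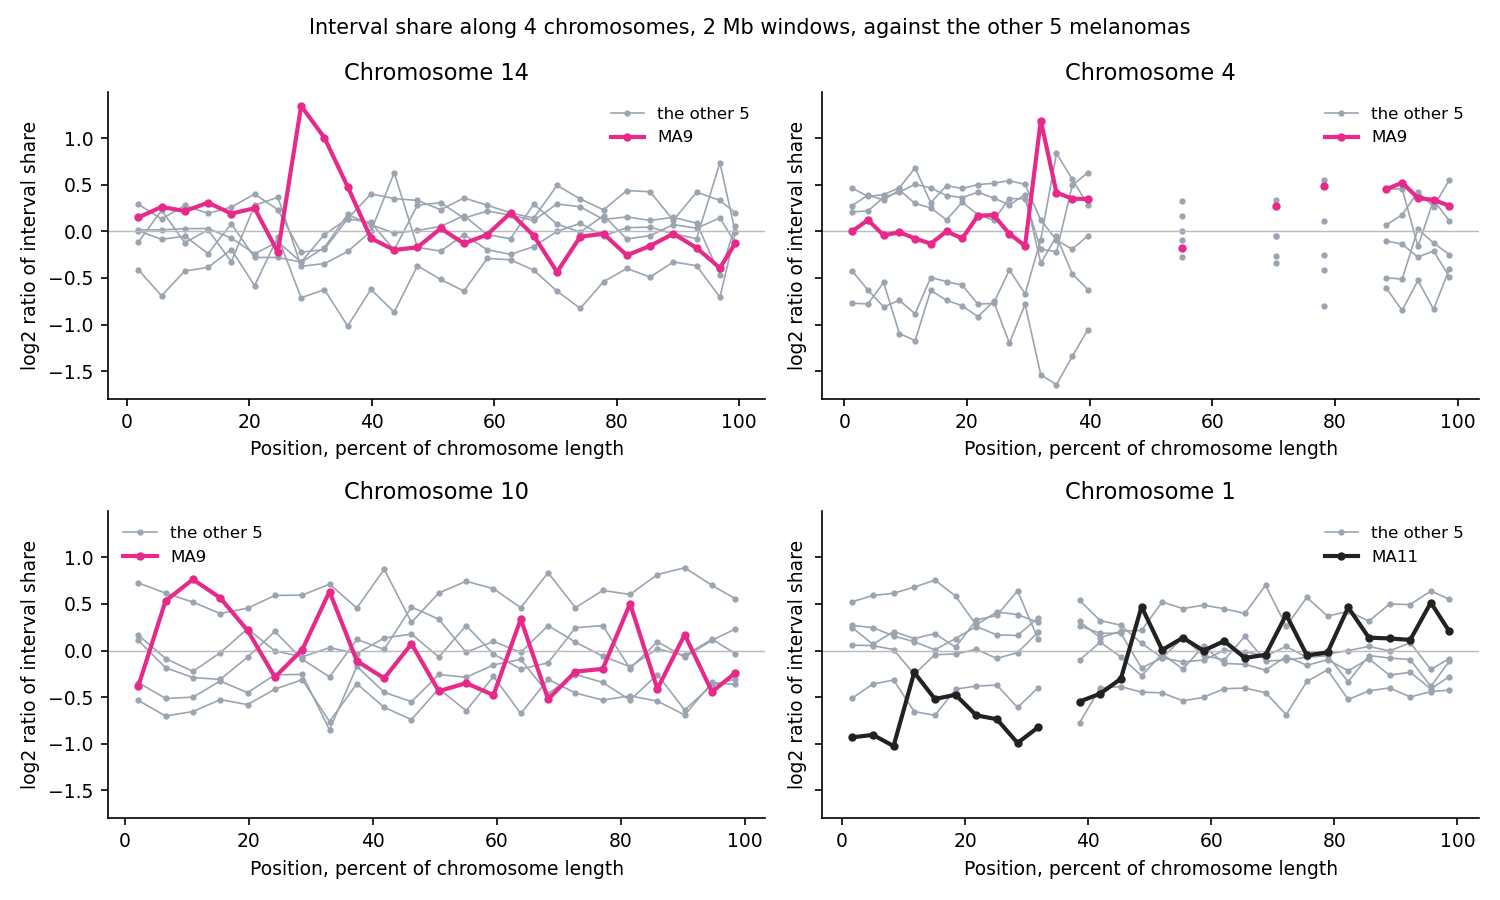
Share of intervals in 2 Mb windows along chromosomes 14, 4, 10 and 1, as the log2 ratio to the other 5 melanomas, by position in percent of chromosome length. The named melanoma is drawn in color and the other 5 in gray, and windows with a mean under 20 intervals are left out. MA9 rises in single stretches on chromosomes 14 and 4 and repeatedly on chromosome 10, and MA11 is below the rest at the start of chromosome 1, down to −1.02.

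MA9 had short blocks in which both the number and the height of sites were raised. These were looked for after the data had been seen, in windows of 250 kb where interval number and the median height of shared regions both departed from the chromosome by at least 0.6 log2 in the same direction. Of 19470 window-tumor pairs, 76 were higher (0.390%) and 86 lower (0.442%). MA11 had 34 of the higher ones (1.05% of its windows), at most 3 on any chromosome. MA9 had 26 (0.801%), and 25 of these lay on chromosomes 4, 10 and 14. Called windows at most 1 window apart were joined into blocks of at least 2, which gave 7 raised blocks in MA9 with a summed length of 6.75 Mb, 1 raised and 3 lowered short blocks on chromosome 1 of MA11, and 0 in the other 4 tumors. The interval numbers, heights and counts of raised regions given below for each block largely follow from this choice. Regions of 1 library are not replicates of its tumor.

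The strongest block was at 14.25 to 15 Mb of chromosome 14. It held 133 intervals in the complete list of MA9, against 57 in MA6, 52 in MA7, 50 in MA8, 29 in MA10 and 52 in MA11. The 13 shared regions in it had a median height of 14.5 tags per M in MA9, 9.23 in MA6, 3.94 in MA7, 3.73 in MA8, 3.68 in MA10 and 3.31 in MA11. All 13 were raised in MA9 against the others, by a median of 3.41 times. A further block began 1 Mb on, at 16 to 17.5 Mb, with 191 intervals in MA9 and 68 to 134 in the other tumors, and 35 shared regions at a median of 2.49 times, of which 33 were raised.

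On chromosome 4 the block lay at 25 to 26.25 Mb. MA9 had 113 intervals there and the other tumors 49, 66, 60, 19 and 60. Its 15 shared regions had a median height of 12.9 tags per M in MA9, 7.89 in MA7, 5.46 in MA8, 4.67 in MA6, 3.47 in MA11 and 1.53 in MA10. All 15 were raised in MA9, by a median of 3.12 times. MA10, whose chromosome 4 was low throughout, was lowest here. The 5 Mb window that starts at 25 Mb departed from its chromosome in MA10 and MA11, as given above, and not in MA9.

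Chromosome 10 of MA9 had 4 blocks while its share as a whole was that of the other tumors (0.01). They lay at 3 to 4.25, 4.75 to 5.5, 6.25 to 7 and 36.75 to 37.25 Mb. The first held 185 intervals in MA9 and 77 to 173 in the others, with shared regions at a median of 2.00 times (38 of 39 raised), and the last held 108 intervals against 34 to 79, at 1.86 times (12 of 15 raised). The blocks between them were at 1.56 times each and stood out less. At 4.75 to 5.5 Mb MA9 had 49 intervals and the others 26 to 41. The median height departure there was 0.64 log2 in MA9 and nearly the same in MA8 (0.63). At 6.25 to 7 Mb MA9 had 90 intervals and MA11, with chromosome 10 raised as a whole, had 88. Along 23 windows of 2 Mb, MA9 ranged from −0.52 to 0.76 on this chromosome with an SD of 0.41, while the other 5 tumors had an SD of 0.15 to 0.20. High and low windows of MA9 lay on the same chromosome, with 0.63 at 14 to 16 Mb and −0.52 at 30 to 32 Mb.

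The interval share of these blocks was also read in the 6 libraries of run 2, which had no part in choosing them and for which heights were not compared. The other 5 run 3 tumors were the reference for the choice, so their lower values follow from it. The blocks were chosen where MA9 itself was high, so lower values in libraries outside the choice are also largely built in. The shares below describe the blocks and are not a check of them. The block at 14.25 Mb held 5.53% of the intervals of chromosome 14 in MA9 and 1.57% to 2.39% in the other 11, the block on chromosome 4 held 5.09% against 1.64% to 3.11%, and in all 7 blocks MA9 was above each of the other 11. The local background that the caller used was above that of each of the other 5 run 3 tumors in 6 of the 7 blocks, and within their range at 4.75 to 5.5 Mb of chromosome 10 (2.77 times the genome-wide level against 1.84 to 3.17). It was 5.87 times the genome-wide level in MA9 at the shared regions of the block at 14.25 Mb and 1.36 to 3.77 times in the other 5 tumors, and on chromosome 4 it was 6.12 times against at most 3.05. This background comes from the tags of the same library around the same sites, without a control, so it is not independent of the choice of blocks. Regions found only in MA9 made up 58.0% of its regions in the block at 14.25 Mb and at most 44.6% in each of the other 6, against 16.2% in its whole list, which restates the interval excess by which the blocks were chosen. All 7 blocks stayed when the trend of height departures along mean height was removed, and 2 of the 4 blocks of MA11 did. Leaving out 1 of the other 5 tumors gave 5 to 7 blocks in MA9, and without MA9 there were 3 blocks in all, each in MA11. A departure of 0.8 left 4 blocks, all in MA9, and windows of 500 kb gave 2 in MA9, 1 in MA6 and 1 in MA10.

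Regions in a row that were lost or gained together in 1 tumor followed the same lines. Among the 38978 regions found in at least 5 complete lists, 45 stretches of at least 4 neighboring regions were lacking in 1 tumor, 25 in MA11, 19 in MA10, 1 in MA9 and 0 in MA6, MA7 and MA8. Of the 38978 regions, MA11 lacked 4591, MA10 3381, MA9 1932, MA6 922, MA7 704 and MA8 582. The numbers of stretches were not adjusted for these totals. In MA10, 18 of the 19 lay on its lowered chromosomes, which held 24.2% of the regions present in the equal-size lists of all other tumors, and 6 of them lay on chromosome 16. The longest had 7 regions, at chr4:17123226-17180225. In MA11, 13 of the 25 were on lowered chromosomes (24.7% of such regions), with the longest of 6 regions at chr21:26844525-26987738. Others were on chromosomes 1 and 25, such as chr1:102154-157887 in the lowered start of chromosome 1. With the tags of called intervals thinned to equal depth, 38 stretches were found, 24 in MA11 and 14 in MA10. The number depended on the libraries compared, with 86 stretches without MA9, 82 without MA10 and 95 without MA11, where a stretch had to be present in only 4 other tumors.

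Stretches of at least 4 regions found in 1 tumor only were taken from the equal-size lists. They numbered 159 in MA11, 36 in MA9, 28 in MA10, 13 in MA6, 12 in MA8 and 3 in MA7. These held 710 of the 17740 single-tumor regions of MA11, 179 of 9929 in MA9 and 115 of 11871 in MA10. In MA6 they held 56 of 7016, in MA8 53 of 7192 and in MA7 16 of 6642. The counts were not adjusted for these different totals. By number of regions the longest stretches were in MA9, and by length in MA8, with 4 regions over 244 kb at chr13:18620646-18865060. At chr4:24196065-24226940, 10 neighboring regions were found in the equal-size list of MA9 alone. At chr4:24237602-24266244 there were 8 more, both stretches lying before the raised block of chromosome 4. Complete lists were not read for these stretches. Of all single-tumor regions of MA9, 75.4% had no interval in the complete lists of the other 5 tumors. A stretch of 9 lay at chr14:14240417-14313425, at the start of the block of chromosome 14, and one of 8 at chr10:28422798-28473019, close to the best-ranked MA9 region named above. In MA11 79 of the 159 stretches were on its raised chromosomes 7, 10 and 16, which held 17.1% of its regions, and the longest, of 8 regions, were on these chromosomes. MA7 had a stretch of 7 at chr5:32613472-32709761, on a chromosome that was not shifted in it (0.28).

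Height windows gave a further view of local differences. In 1240 windows of 1 Mb with at least 5 shared regions, 124 of 7440 window-tumor pairs were higher than their chromosome by at least 0.6 log2 (1.67%) and 111 lower (1.49%). Windows of at least 10 regions gave 54 higher (0.860%) and 42 lower (0.669%), of which MA11 had 31 and 13, MA6 9 and 16, MA9 10 and 0, MA10 2 and 6, MA7 1 and 6, and MA8 1 and 1. MA6 had 6 raised windows between 47 and 55 Mb of chromosome 6, by 0.63 to 0.85, on a chromosome whose share was not shifted (−0.05), and 1 lowered window at 59 to 60 Mb (−0.69). MA11 had 4 raised windows between 40 and 45 Mb of chromosome 13, up to 1.18. In the window of that value, at 41 to 42 Mb, MA7 was at −1.18. Each value is set against the other 5 tumors, so these are not independent. Height departures also moved with the mean height of a region, most in MA11, where the running median ran from −0.38 to 0.66. With that trend removed MA11 had 18 higher and 7 lower windows of at least 10 regions in place of 31 and 13, and the count of windows of at least 5 regions over all tumors was 187 in place of 235.

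Regions found in more of the run 3 tumors were also found more often in the melanomas of run 2. Such regions were stronger and wider, as given above, so the detection class and the strength of a region cannot be told apart in these shares. Of the regions in all 6 run 3 tumors, 95.2% had an interval in the complete list of MA4 and 94.0% in that of MA5, and 21925 of 24170 (90.7%) had one in both. Of regions in 5 tumors 65.5% were in both, of regions in 4 tumors 47.8%, of regions in 3 tumors 31.9%, of regions in 2 tumors 19.0%, and of single-tumor regions 6.46%. MA4 and MA5 were not used to form the classes, and they differ from the run 3 tumors in sequencing run as well as in tumor. In each melanocyte library the order of the classes was the same. Shares of the regions of all 6 tumors were lower than in MA4 and MA5, and shares of single-tumor regions were not lower throughout. Single-tumor regions had an interval in MA4 for 16.3% and in MA5 for 15.1%, each library taken alone. MC_Het replicate 4 had 62.7% of the regions of all 6 tumors and 12.7% of the single-tumor ones, and MC_Homo 49.6% and 9.52%. MC_Het replicate 5, with the deepest list of the series, had 89.5% and 48.3%. These shares were read in complete lists, which differ in length. In lists of at most 62916 intervals MC_Het replicate 5 had 64.6% and 14.3%. There the single-tumor share was 9.52% to 14.3% in the melanocyte libraries, 8.44% in MA4 and 9.04% in MA5. For 22403 of the 60390 single-tumor regions (37.1%) no library outside run 3 had an interval, against 77 of 24170 regions (0.319%) of all 6 tumors.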

How the data were processed

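Up to 50000 sorted cells per library were tagged with Tn5 and sequenced as 2 × 50 bp reads. The authors trimmed reads with CutAdapt, aligned them with BWA to GRCz11, removed improper pairs, reads with a mapping quality under 30 and duplicates, and called peaks in each library with MACS2, without a control library, counting each read end as a tag of 100 bp. Tool versions were not given in the sources used here. The deposited peak lists give the fold enrichment of each summit over the local background as a ratio, and its p-value and q-value as −log10 p and −log10 q. Peaks of the same position were kept once, with the highest −log10 p.

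Tags per library were recovered from the most frequent background level, and pileups from fold enrichment and −log10 p together, whole to within 0.05 for at least 99.998% of intervals in run 3. The depth was 6.05 to 11.54 M tags. Python 3.11.15 was used with numpy 2.4.6, pandas 2.3.3, scipy 1.17.1 and matplotlib 3.10.9. The scripts were tested on simulated data. Exact binomial intervals (95%) and exact permutation tests over libraries were used. The libraries, measures and thresholds were chosen with earlier results of these data known, and blocks, height-trend removal and the 28 Mb boundary were added after the data were seen.

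Named regions were the 5 with the lowest mean rank in all 6 tumors and, per tumor, the 2 best-ranked regions found in it alone and the 2 lacking in it alone, on chromosomes within 0.15 log2 of the other tumors and judged on complete lists. Alternatives were other list sizes, thresholds and windows, thinning of called intervals to equal depth without new peak calling, equal chromosome shares and leaving out each library. Gene annotation, sequence, motifs, marker genes and the reproducibility analysis of replicate peaks were not analysed here, since no annotation of GRCz11 was used.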

Additional observations from a re-analysis of the deposited data

Results flagged for a closer look

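In 33 sets of values over the 6 tumors, 1 tumor stood apart from the other 5 in 2 sets by Dixon's test, which chance gives in about 1 of 20 sets. The first was the number of regions lacking in 1 tumor only, where MA11 had 4532 and the next tumor, MA10, had 2134. MA11 was also the shallowest library, with 6.05 M tags, and the part of depth in this count was not separated from that of the tumor. The 3 libraries with the highest counts (MA9, MA10 and MA11) are also the 3 with fewest tags and the 3 whose peak names carry the tag pig, which the labels do not explain, so these cannot be told apart. The second was the share of intervals on chromosome 15, where MA6 had 3.76% and each of the other 5 tumors less.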

How the results depend on the processing

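Of 131 alternative values, 101 stayed near the main value or on its side of the threshold, 27 moved, 3 lost a call and 0 reversed. The tolerance was wide, since 87061 single-tumor regions with complete lists counted as near the main 60390. Some alternatives could not differ. An overlap of at least 50 bp left 24170 regions in all 6 tumors, and scaling heights by their median left 235 height windows, both by construction. Lists of the 20000 strongest intervals gave 8832 regions in all 6 tumors, 3658 in 5 and 11249 in 1, and lists of 10000 gave 4122, 1876 and 6125, with a mean rho of 0.57, a share spread of 0.36 and 59 shifted chromosomes. Single-tumor regions were 38363 with lists shortened chromosome by chromosome and 38935 genome-wide at that size, both shorter lists. Shifted chromosomes numbered 69 at a threshold of 0.2 and 11 at 0.5. In 2 Mb windows 73.7% of variance lay between chromosomes and 29 windows departed, and with complete lists 13 windows of 5 Mb did. Stretches numbered 189 with at least 3 regions and 3 with at least 6. Height windows of at least 10 regions numbered 96. Blocks numbered 4 at a departure of 0.8 and 4 with 500 kb windows. Shortening the run 2 lists gave 83.9% in place of 90.7% for regions of all 6 tumors found in both MA4 and MA5. Without MA8 and MA11 the relations to depth had r = −0.97 for single-tumor and −0.85 for lacking regions, where 4 libraries cannot pass the threshold, and complete lists gave r = −0.15 for single-tumor regions. The cause of these moves was not tested beyond list size and number of libraries. With each tumor left out once there were 24985 to 28734 regions in all remaining tumors, a mean rho of 0.65 to 0.69, a Jaccard index of 41.9% to 47.3%, a share spread of 0.25 to 0.29, 31 to 37 shifted chromosomes, 3 to 10 local windows, 57 to 95 stretches and 3 to 11 blocks.

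No paired analysis was possible because the replicate numbers that melanoma and melanocyte libraries share belong to different fish, and the 6 tumors were compared within 1 group. Depth limits the weak end of the lists, where most single-tumor regions lie, and the lists hold no value for regions that the caller did not report.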
